A study of Homo sapiens with 3 samples.

Results

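The genes described here are 36 genes of the NRF2 response and of glutathione, thioredoxin and peroxide metabolism, chosen by name. Probes of the array were annotated to 35 of them, through 40 probes, of 17614 gene symbols on 20228 usable annotated probes. No probe used here carried the name AKR1C1, the remaining gene. The cells were HSC-3, an established line grown out of a squamous carcinoma of the tongue, and their RNA was hybridised to 3 single-colour microarrays, 1 array per condition. The shDKK3 cells carried a lentiviral short hairpin RNA (shRNA) targeting DKK3, which encodes a secreted member of the dickkopf proteins. The shScr cells carried a scrambled shRNA in a lentiviral GFP vector, and the parental cells carried no shRNA. Both shRNA lines were grown with puromycin, so parental cells differ from them in vector, virus and drug as well. The labels tie each condition to 1 RNA sample of 1 line, and which hairpin sequences the shDKK3 line carried is not given in the sources used here. With no replicates, every difference given is between arrays, and no test or replicate error could be had.

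NRF2, the product of NFE2L2, is a transcription factor that cells use against oxidants and electrophiles. In unstressed cells KEAP1 holds NRF2 and presents it to the CUL3 ubiquitin ligase for degradation, so NRF2 is controlled largely at the protein level. When KEAP1 is modified or mutated, NRF2 pairs with small MAF proteins at antioxidant response elements and raises genes for glutathione synthesis, thioredoxin recycling, NADPH supply, quinone and carbonyl reduction and iron storage. Squamous carcinomas of the head and neck are among the tumours in which this pathway is often altered.

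Levels are normalised log2 intensities, in which an offset of 50 intensity units is included. The offset shrinks the differences of dim probes, and the authors' deposited values, which lack it, are given beside them where useful. A probe's level cannot be set against that of another probe. Of the 35 genes, 33 lay above the blank-spot limit on all 3 arrays. DKK3 itself had 8.19 on the shDKK3 array, 8.58 on shScr and 8.90 on parental. These differences (-0.39 and -0.71) turned to 0.17 and 0.23 when the deposited background column was subtracted. DKK3 differed by -0.32 between the controls (shScr minus parental), and genes of like level differed there with a robust SD of 0.48. Its difference to shScr was thus within that SD, and its difference to parental was beyond it. All 10 squamous epithelial markers with a probe were above the limit on all arrays, with deposited intensities summing to 61513 on shDKK3, 21069 on shScr and 17817 on parental. Of 17 fibroblast, leukocyte, endothelial and hepatocyte markers, 7 were above it on no array, including PTPRC, PDGFRA and ALB. Another 6 were above it on all arrays (DCN, PDGFRB, CD14, LYZ, VWF and KDR). The brightest of them, DCN, had 92 deposited units on shDKK3, 72.9 on shScr and 83.5 on parental. The deposited intensities of the 17 markers summed to 241 on shDKK3, 184 on shScr and 204 on parental. Both marker sums were thus highest on the shDKK3 array, although DSP, a squamous desmosome gene, had 197 on shDKK3, 356 on shScr and 266 on parental, and DSG3 had 53.0, 61.6 and 69.8. The squamous sum is carried by bright probes such as those of the keratins, and the part of either sum in the values below was not tested.

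NFE2L2 had lower signal on the shDKK3 array than on either control array, whereas KEAP1 did not. The normalised log2 level of NFE2L2 was 8.73 on shDKK3, 10.08 on shScr and 9.92 on parental. The control arrays lay 0.16 apart, and the shDKK3 array stood 1.34 below shScr and 1.18 below parental, which is 2.54-fold and 2.27-fold lower. In the authors' deposited table NFE2L2 had 274 on shDKK3, 658 on shScr and 653 on parental. Genes of like level differed between the control arrays with a robust SD of 0.43 (log2). KEAP1, the adaptor that holds NRF2, had 9.72 on shDKK3, 9.64 on shScr and 9.22 on parental. Its difference to shScr, 0.08, had the opposite sign with scaling to the median (-0.21). KEAP1 was 0.50 above parental and -0.02 with the background column subtracted.

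Both NFE2L2 differences exceeded 2-fold under all 10 alternative settings. They ranged between -1.68 and -1.22 against shScr and between -1.39 and -1.14 against parental. Among the alternatives, no filter leaves a gene's difference at its main value. The mean of probes does the same for a gene with 1 probe, such as NFE2L2. Here and below, those settings could not move such a gene and add nothing to its tally.

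**Figure D1:**
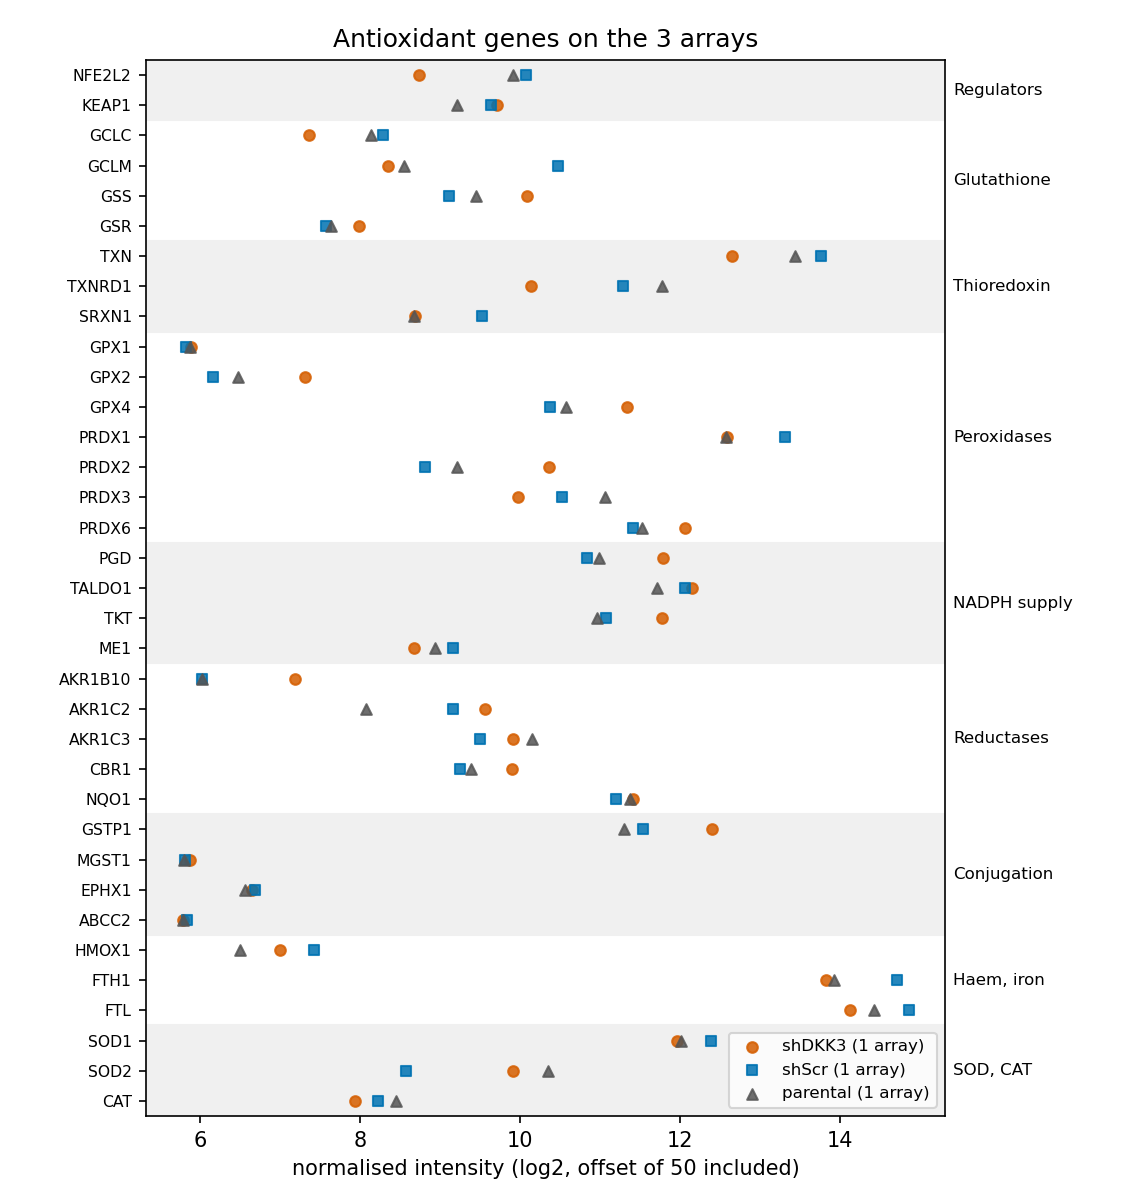
Normalised log2 intensity (x axis, offset of 50 included) of the 35 antioxidant genes (rows, grouped by role) on the shDKK3, shScr and parental arrays, 1 point per array. NFE2L2 lies lowest on the shDKK3 array, at 8.73, and GCLM has its highest point on the shScr array, at 10.47.

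Glutamate-cysteine ligase makes the rate-limiting step of glutathione synthesis, and its genes had lower signal on the shDKK3 array than on shScr. GCLM, the modifier subunit, had 8.35 on shDKK3, 10.47 on shScr and 8.55 on parental. The shScr array was the one apart, since shDKK3 and parental differed by only -0.20. GCLM was 4.36-fold lower on shDKK3 than on shScr (log2 difference -2.13), at percentile 0.0924 of all compared genes. Between the controls, GCLM was 3.79-fold higher on shScr than on parental (log2 difference 1.92), at percentile 99.97. The deposited values were 196 on shDKK3, 869 on shScr and 238 on parental. Under the 10 alternatives the difference to shScr stayed past 2-fold, between -2.46 and -1.88.

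GCLC, the catalytic subunit, was arranged differently. It had 7.36 on shDKK3, 8.29 on shScr and 8.14 on parental, so the 2 controls lay close together and shDKK3 lay below both. The differences were -0.93 and -0.78. They passed 2-fold against shScr in 5 of the 10 alternatives, down to -1.29 with scaling to the median, and against parental in 2, down to -1.12 in the authors' table. The deposited intensities of GCLC were 78.6 on shDKK3, 179 on shScr and 171 on parental. GSS, glutathione synthetase, which completes glutathione, went the other way, with 10.09 on shDKK3, 9.12 on shScr and 9.46 on parental. It was 0.97 above shScr and 0.63 above parental, and passed 2-fold against shScr in 4 of the alternatives, up to 1.32 in the authors' table. GSR, which recycles oxidised glutathione with NADPH, had 7.99 on shDKK3, 7.57 on shScr and 7.64 on parental, a difference of 0.42 to shScr and 0.35 to parental. On shDKK3 the ligase genes thus lay below both control arrays, and GSS and GSR above both. The difference of GCLM to parental was smaller than the robust SD between the controls at its level (0.44). Those of GSR were close to the SD at its level (0.36). After normalisation only the difference of GCLM to shScr reached 2-fold.

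NRF2 acts through the antioxidant response element, whose core was searched as TGACNNNGC on both strands of RefSeq promoter windows (GRCh38.p14), 250 bases before to 50 bases after each start. A window was found for 27 of the 35 genes, and 10 of them held the core, which is 37.0%, against 16.1% of 27305 genes in the table. Many of these genes were listed as known NRF2 targets, so this share describes the list. A match is a string of letters and not a shown binding site. Among the 11 genes at least 2-fold different in a shDKK3 comparison (AKR1B10 had no window), the core lay before a start in GCLM and TXNRD1, both lower than shScr, and in GPX2 and GSTP1, both higher. Their matches are shown to let the elements of lower and higher genes be compared, with the core in capitals and 25 bases on each side, 5′ to 3′ on the gene's strand. TXNRD1 has a match at 2 different starts.
GCLM, chr1:93909431-93909489, minus strand: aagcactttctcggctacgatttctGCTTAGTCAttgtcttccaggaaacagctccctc
TXNRD1, chr12:104215655-104215713, plus strand: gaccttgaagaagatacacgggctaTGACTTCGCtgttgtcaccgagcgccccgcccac
TXNRD1, chr12:104286905-104286963, plus strand: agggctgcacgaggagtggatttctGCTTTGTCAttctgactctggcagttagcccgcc
GPX2, chr14:64942834-64942892, minus strand: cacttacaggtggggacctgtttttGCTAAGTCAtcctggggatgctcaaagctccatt
GSTP1, chr11:67583721-67583779, plus strand: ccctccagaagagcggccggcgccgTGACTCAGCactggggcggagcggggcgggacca

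In GCLM, GPX2 and the later TXNRD1 start the core reads on the opposite strand. The GCLM match ends 26 bases before the start and the GSTP1 match ends 58 bases before it. The GSTP1 core also holds the AP-1 motif TGACTCA, which was found in 6.05% of the genes. The other cores shown did not overlap that motif. Genes with a core therefore stood on both sides of the shScr array.

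The thioredoxin genes had lower signal on shDKK3 than on shScr in all 3 cases. TXNRD1, the selenoprotein reductase of thioredoxin, had 10.14 on shDKK3, 11.30 on shScr and 11.78 on parental. It was lowest on shDKK3, 2.22-fold below shScr (log2 difference -1.15) and 3.10-fold below parental (-1.63). The difference to parental, at percentile 0.194 of compared genes, stayed past 2-fold in all 10 alternatives. The difference to shScr did so in 8, and in the deposited values it was 1.66-fold. The control arrays differed by -0.48 (shScr minus parental).

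TXN, thioredoxin, had 12.66 on shDKK3, 13.76 on shScr and 13.44 on parental. Its difference was -1.11 to shScr and -0.78 to parental, but the deposited intensities were close, at 6099 on shDKK3, 7539 on shScr and 7715 on parental. On that scale TXN was 1.24-fold below shScr, and the 2-fold call held in 7 of the 10 alternatives. SRXN1, sulfiredoxin, which repairs overoxidised peroxiredoxins, had 8.68 on shDKK3, 9.53 on shScr and 8.67 on parental. As with GCLM, shScr was the array apart, at -0.85 for shDKK3 minus shScr. The difference to parental was 0.01 and changed sign under 4 alternatives. A second SRXN1 probe lay near the blanks, with 6.3, 6.7 and 4.97 deposited units on shDKK3, shScr and parental.

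**Figure D2:**
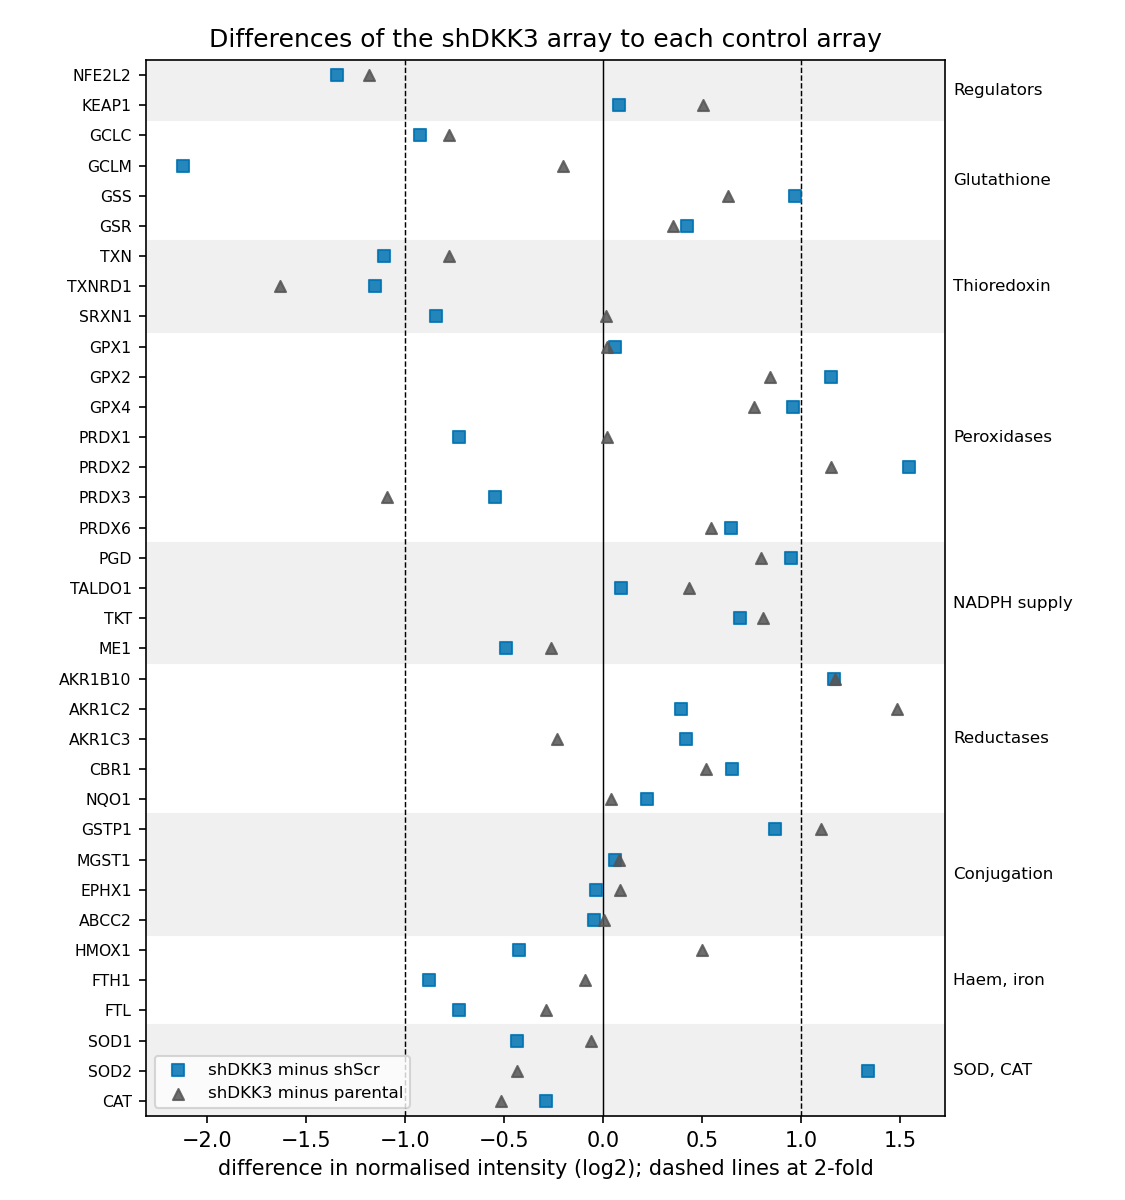
Difference in normalised log2 intensity (x axis) of the shDKK3 array to shScr (squares) and to parental (triangles) for the 35 antioxidant genes (rows), with dashed lines at 2-fold. NFE2L2 and TXNRD1 lie left of the lower line in both comparisons, and AKR1B10 and PRDX2 right of the upper line in both.

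Among the peroxidases, PRDX2 and the glutathione peroxidases GPX2 and GPX4 had higher signal on shDKK3 than on both controls, while PRDX3 had lower signal than on parental. PRDX2, a cytosolic peroxiredoxin, had 10.36 on shDKK3, 8.82 on shScr and 9.21 on parental. It was 2.91-fold above shScr (log2 difference 1.54) and 2.22-fold above parental (1.15). The deposited intensities were 1040.3 on shDKK3, 271 on shScr and 388 on parental. Past 2-fold in all 10 alternatives against parental, it was so in 9 against shScr, the exception being 0.96 with the background column subtracted.

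GPX2, an epithelial glutathione peroxidase, had 7.32 on shDKK3, 6.16 on shScr and 6.47 on parental. It was 2.22-fold above shScr (1.15) and 1.79-fold above parental (0.84). Its deposited intensities were 75 on shDKK3, 12.2 on shScr and 27.4 on parental, a 6.15-fold difference to shScr. With the background column subtracted that difference was 0.05. GPX4, which reduces lipid hydroperoxides and restrains ferroptosis, had 11.33 on shDKK3, 10.38 on shScr and 10.57 on parental, at 0.96 above shScr and 0.76 above parental. Its difference to shScr was 0.012 with the background column subtracted and 1.49 in the authors' table. PRDX6, which reduces phospholipid peroxides, was arranged alike, with 12.07, 11.42 and 11.52 on the same arrays (0.65 above shScr, 0.54 above parental). The GPX1 probe lay near the blanks, with 5.3, 2.5 and 4.56 deposited units on shDKK3, shScr and parental, and carries little about that gene.

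PRDX3, the mitochondrial peroxiredoxin, had 9.97 on shDKK3, 10.52 on shScr and 11.06 on parental. The difference to parental was -1.09, which stayed past 2-fold in 7 of 10 alternatives, and to shScr it was -0.55 (0.08 with the background column subtracted). PRDX1, an abundant cytosolic peroxiredoxin and known NRF2 target, had 12.59 on shDKK3, 13.32 on shScr and 12.58 on parental. It was at -0.73 to shScr after normalisation, but the deposited values differed by 0.08 (log2) in the other direction. Of the 7 peroxidases, 5 lay above shScr, where 55.9% of all genes did, and 6 above parental, where 57.8% did. The counts include GPX1 (0.06 and 0.02) and, against parental, PRDX1 (0.02), and the signs of both against parental turned in 2 alternatives. Only PRDX2 was at least 2-fold apart from both control arrays.

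The pentose phosphate pathway supplies NADPH for these enzymes through its oxidative branch, and its genes PGD and TKT had higher signal on the shDKK3 array without reaching 2-fold after normalisation. PGD, 6-phosphogluconate dehydrogenase of the oxidative branch, had 11.79 on shDKK3, 10.84 on shScr and 10.99 on parental (0.95 and 0.80 above the controls). TKT, transketolase of the non-oxidative branch, had 11.77, 11.08 and 10.96 on the same arrays (0.69 and 0.81). Neither changed sign against either control in the 10 alternatives, and in the deposited values PGD was 2.82-fold and TKT 2.43-fold above shScr. TALDO1, transaldolase, had 12.15 on shDKK3, 12.06 on shScr and 11.72 on parental. Its second probe lay on the other side of shScr, at -0.38 against 0.09, and the mean of both probes gave -0.15. ME1, the cytosolic malic enzyme, was at -0.49 to shScr and -0.26 to parental.

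Aldo-keto reductases detoxify aldehydes and ketones, and AKR1B10 is often raised in squamous lung cancers. AKR1B10 had 7.19 on shDKK3, 6.03 on shScr and 6.02 on parental. It was thus 2.24-fold above shScr (1.16) and 2.25-fold above parental (1.17), with the controls 0.01 apart. Its signal on the control arrays was close to the blanks. The deposited intensities of 65.5 on shDKK3, 8.0 on shScr and 9.42 on parental differ by 8.19-fold and 6.95-fold. The second AKR1B10 probe gave 0.99 against shScr and 0.94 against parental. With the background column subtracted the differences were 0.29 and 0.28.

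The AKR1C2 probe followed another order. It had 9.56 on shDKK3, 9.16 on shScr and 8.08 on parental, so both shRNA lines lay above parental. The shDKK3 array was 2.79-fold above parental (1.48), at percentile 99.90 of compared genes, and shScr was 2.13-fold above it (1.09). Between shDKK3 and shScr the difference was 0.39. With the background column subtracted the first 2 turned to -0.18 and -0.15. AKR1C1 and AKR1C2 are near-identical paralogs, so the AKR1C2 signal may include AKR1C1 and is uncertain. A second AKR1C2 probe was not above the limit on any array. AKR1C3, which reduces steroids and prostaglandins, had 9.92 on shDKK3, 9.50 on shScr and 10.15 on parental. Its difference to shScr, 0.42, was close to that of AKR1C2, but against parental it was at -0.24 and did not follow AKR1C2. With the background column subtracted the AKR1C3 differences were -0.01 and 0.10.

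CBR1, a carbonyl reductase, had 9.91 on shDKK3, 9.26 on shScr and 9.39 on parental (0.65 and 0.52 above the controls). NQO1, the quinone reductase often used as a readout of NRF2, had 11.42 on shDKK3, 11.20 on shScr and 11.38 on parental. It was 0.22 above shScr and 0.04 above parental, both below 0 with the background column subtracted (-0.03 and -0.13). NQO1 thus did not share the lower signal of NFE2L2 and TXNRD1 on shDKK3 than on both controls. Nor did it share that of GCLM, which was 2-fold lower relative to shScr alone.

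**Figure D3:**
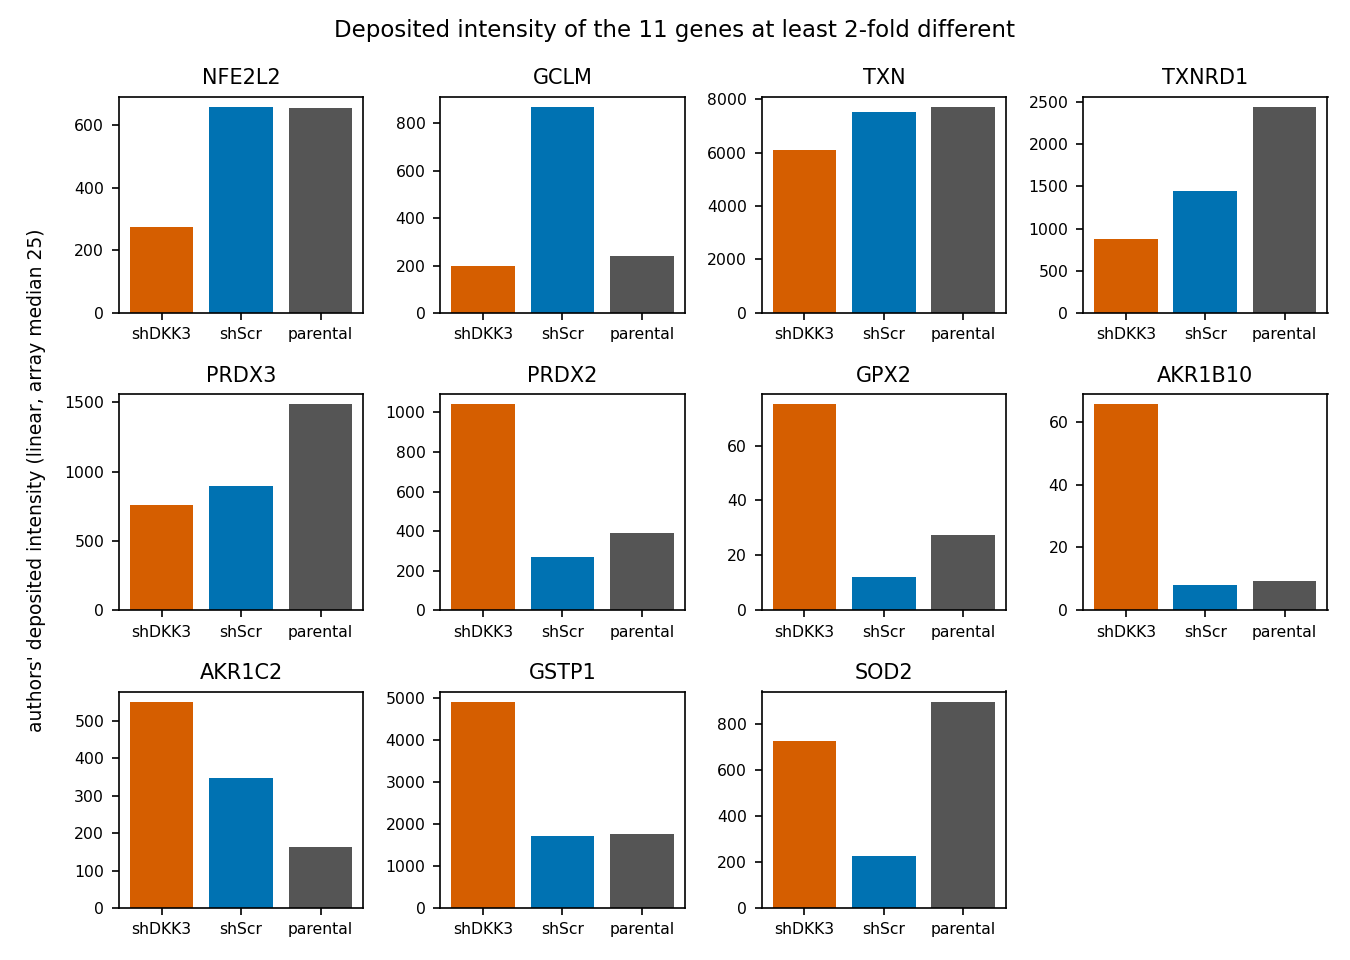
Authors' deposited intensity (linear y axis from 0, each array's median at 25) on the shDKK3, shScr and parental arrays for the 11 genes at least 2-fold different from a control array after normalisation, 1 bar per array. NFE2L2 stands at 274 on shDKK3 and at 658 and 653 on the controls, and AKR1B10 at 65.5 against 8.0 and 9.42.

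Of the conjugating and exporting proteins only GSTP1 reached a 2-fold difference. GSTP1, the pi-class glutathione transferase, had 12.40 on shDKK3, 11.53 on shScr and 11.30 on parental. It was 1.82-fold above shScr (0.87) and 2.14-fold above parental (1.10). Its second probe gave 0.72 and 1.05. The deposited intensities were 4910.3 on shDKK3, 1708 on shScr and 1752 on parental, 2.88-fold and 2.80-fold apart. EPHX1, the microsomal epoxide hydrolase, was at -0.04 to shScr and 0.08 to parental. MGST1, a membrane glutathione transferase, lay near the blanks and was not above the limit on parental. After normalisation this made shDKK3 at least 1.04-fold higher than parental, and the difference ranged from 0 to 0.39 over the alternatives. ABCC2, an exporter of glutathione conjugates, was above the limit on shScr alone, after normalisation at least 1.03-fold above shDKK3. That difference (-0.04) changed sign under 3 alternatives, up to 0.44, so its direction is not settled.

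Haem oxygenase and the ferritins, which limit free haem and iron, had their highest signal on the shScr array after normalisation, which for FTL did not hold in the deposited values. HMOX1, haem oxygenase 1, had 7.0 on shDKK3, 7.43 on shScr and 6.5 on parental. Relative to shScr it was at -0.42 and relative to parental at 0.50, and shScr was 0.92 above parental. The deposited intensities of HMOX1 were 52.5 on shDKK3, 81.8 on shScr and 28.6 on parental. FTH1, ferritin heavy chain, had 13.83 on shDKK3, 14.71 on shScr and 13.93 on parental, and FTL, ferritin light chain, had 14.13, 14.86 and 14.42. Of the differences to shScr, that of FTL (-0.73) turned to 0.16 in the deposited values, and that of FTH1 (-0.88) shrank to -0.04. Ferritin genes have many processed pseudogenes, so their probe values are uncertain.

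SOD2, the mitochondrial superoxide dismutase and a known NF-kB target, had its lowest signal on the shScr array, except with the background column subtracted. It had 9.92 on shDKK3, 8.58 on shScr and 10.35 on parental. It was 2.52-fold above shScr (1.34) but at -0.44 to parental, and shScr lay 3.41-fold below parental (-1.77), at percentile 0.0808 of compared genes. With the background column subtracted these differences were -0.0502, 0.57 and 0.62. SOD1, the cytosolic enzyme, had 11.96 on shDKK3, 12.40 on shScr and 12.02 on parental, and its difference of -0.44 to shScr was 0.22 in the deposited table. CAT, catalase, had 7.94 on shDKK3, 8.22 on shScr and 8.46 on parental (-0.29 and -0.52). With the background column subtracted CAT was at 0.43 and 0.04.

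Counted over the list, 4 of 35 genes were at least 2-fold higher on shDKK3 than on shScr (AKR1B10, GPX2, PRDX2 and SOD2), against 2.96% of all compared genes. Another 4 were at least 2-fold lower (NFE2L2, GCLM, TXNRD1 and TXN), against 4.48%. The median of the list was 0.06, against 0.03 over all genes. Against parental, 4 of 34 genes were at least 2-fold higher (AKR1B10, AKR1C2, PRDX2 and GSTP1), with 0.862% of all genes, and 3 were lower (NFE2L2, TXNRD1 and PRDX3), with 3.04%. The list's median was again 0.06, against 0.03. These comparisons share the shDKK3 array. By role, the median difference was -1.11 to shScr and -0.78 to parental for the 3 thioredoxin genes, and -0.73 and -0.09 for the 3 haem and iron genes. It was 0.65 and 0.54 for the 7 peroxidases, 0.42 and 0.52 for the 5 reductases, and 0.39 and 0.62 for the 4 NADPH genes. The other roles lay at -0.63 and -0.34 (regulators), -0.25 and 0.07 (glutathione), 0.01 and 0.08 (conjugation and export), and -0.29 and -0.44 (superoxide and catalase). The list had 54.3% of its genes above 0 against shScr, close to the 55.9% of all genes. Its quartiles against shScr, -0.64 and 0.67, lay wider than those of all genes, -0.19 and 0.22. These quartiles are not matched for brightness, and the offset shrinks the differences of dim probes. A mean level of at least 8 was reached by 26 of the 35 genes, against 3670 of 15148 genes.

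Brighter genes pass 2-fold more easily on this scale, and 26 of the genes had a mean level of at least 8. Of these 26, 2 were at least 2-fold higher and 4 lower on shDKK3 than on shScr, where 8.69% and 12.8% of genes at that level were. Against parental, 3 of the 26 were higher and 3 lower, where 2.48% and 9.1% were. On shScr against parental, 2 were higher and 1 lower, where 1.34% and 2.89% were. The level of 8 was chosen after values were seen. At like brightness the counts against shScr were therefore near the background. At a 1.5-fold threshold 11 of the 35 genes were higher and 9 lower on shDKK3 than on shScr, with 9.53% and 11.5% of all genes. Against parental 9 of 34 were higher and 5 lower at that threshold, with 6.83% and 9.38%. On shScr against parental 6 of 35 were higher and 2 lower, with 3.03% and 3.78%. Brightness is not matched in the 1.5-fold shares.

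The split of calls depended on the scale. Against shScr, scaling to the 75th percentile gave 8 genes higher and 2 lower, but it moved the median of all genes to 0.37, and relative to that median 1 was higher and 5 lower. Of all genes, 3.54% were higher and 4.14% lower with that scaling. The authors' table gave 10 higher and 3 lower, with all genes at 0.17, and 10 and 3 relative to that, where 11.6% of all genes were higher and 9.92% lower. Subtraction of the background column gave 2 higher and 7 lower, where 2.44% and 2.69% of all genes were. Against parental the splits were 7 and 2 with scaling to the 75th percentile (all genes at 0.26, and 3 and 4 relative to it), 8 and 3 in the authors' table and 4 and 2 with the background column. The matching shares of all genes were 1.33% and 2.59%, 3.80% and 10.0%, and 1.46% and 1.66%.

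Both controls together separated 4 genes by at least 2-fold. AKR1B10 and PRDX2 were higher than each, as were 0.564% of all genes. NFE2L2 and TXNRD1 were lower than each, as were 2.05%. These shares are not matched for brightness. The shDKK3 array was the highest of the 3 for 17 of 34 genes, with 48.2% over all genes, and the lowest for 11, with 33.5%.

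**Figure D4:**
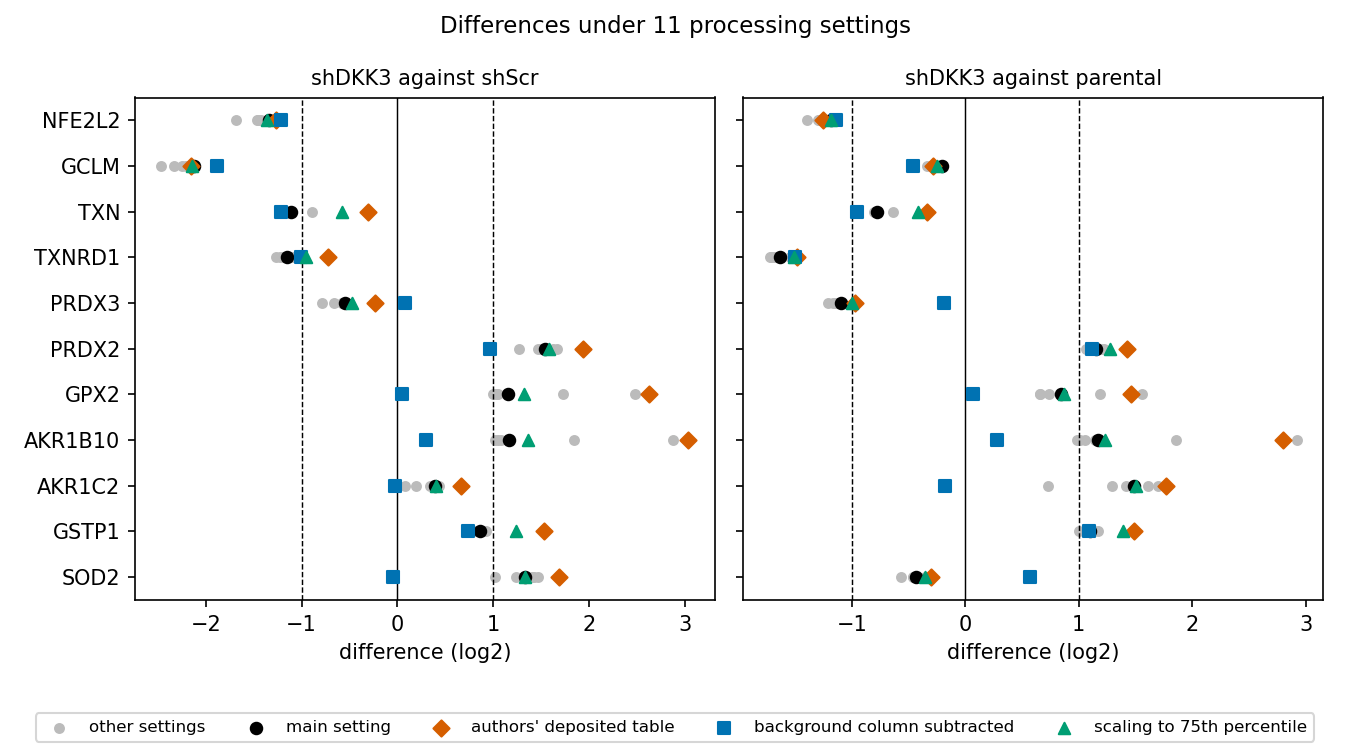
Log2 difference of shDKK3 to shScr (left) and to parental (right) under 11 processing settings (points) for the 11 genes at least 2-fold different from a control array, with dashed lines at 2-fold. NFE2L2 lies below the lower line in every setting shown, while AKR1C2 against parental spreads from -0.18 with the background column subtracted to 1.76.

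The 2 control arrays themselves differed in several of these genes. On shScr, GCLM (1.92) and AKR1C2 (1.09) were at least 2-fold higher than on parental, against 0.404% of all genes, and SOD2 (-1.77) was at least 2-fold lower, against 0.983%. The next largest differences on the higher side were those of the NRF2 targets HMOX1 (0.92), SRXN1 (0.86), FTH1 (0.79) and PRDX1 (0.74), with the same sign in all 10 alternatives. For GCLM, SRXN1, FTH1 and PRDX1 shDKK3 minus parental was -0.20, 0.01, -0.09 and 0.02 after normalisation. These small differences depended on the setting. Over the alternatives they reached -0.46 for GCLM, 0.27 for SRXN1, 0.46 for FTH1 and 0.84 for PRDX1. NFE2L2 and GCLC differed by 0.16 and 0.15 between the controls and so did not follow GCLM. Where shScr is the array apart, the difference of shDKK3 to shScr cannot be told apart from a difference of the shScr line itself.

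Of 98 further genes of the pathway listed by function, 90 had a probe. Against shScr, 8 of the 85 compared were at least 2-fold higher on shDKK3 and 3 lower, with 2.96% and 4.48% of all genes. These counts ranged from 5 (background column) to 18 (authors' table) and from 2 to 7 over the alternatives. Of all genes, 2.44% were higher with the background column and 11.6% in the authors' table. The 7 lower came with the blank mean subtracted and with scaling to the median, where 12.8% and 8.33% of all genes were lower. Among all genes with a mean level of at least 8, the shares were 8.69% and 12.8% against shScr and 2.48% and 9.1% against parental. The further genes were not counted at that level, so brightness is not matched in these counts. Against parental, 4 of 84 were higher and 2 lower, with 0.862% and 3.04% of all genes. These counts ranged from 3 to 15 and from 2 to 7. The 15 higher came with the blank mean subtracted, where 3.60% of all genes were higher. The 7 lower came in the authors' table, where 10.0% of all genes were lower. On shScr against parental, 1 of 84 was higher and 0 were lower, ranging from 1 to 5 and from 0 to 6. Median differences of shDKK3 were 0.09 to shScr and 0.07 to parental.

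The 3 lower than on shScr include partners and targets of NRF2. SLC7A11, the cystine importer that feeds glutathione synthesis, had 6.12 on shDKK3, 7.89 on shScr and 6.92 on parental. It was at -1.76 to shScr and -0.80 to parental, and 0.97 higher on shScr than on parental, the order seen for GCLM. In deposited units it had 12.9, 128 and 52.0 on the same arrays. SQSTM1, the autophagy receptor p62 that competes for KEAP1, had 10.69 on shDKK3, 11.78 on shScr and 10.67 on parental. It was at -1.08 to shScr and was the gene 2-fold higher on shScr than on parental (1.10). CUL3, the ligase scaffold that acts with KEAP1, had 8.40 on shDKK3, 9.41 on shScr and 9.05 on parental (-1.01 and -0.65). None of these differences to shScr changed sign in the alternatives. BACH1, a repressor at antioxidant response elements, and GGCT, of glutathione breakdown, were the 2 lower than on parental, at -1.19 and -1.18. Both were named after their values were seen.

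Of the 84 further genes compared with both controls, 4 were at least 2-fold higher on shDKK3 than on each, with 0.564% of all genes. At least 2-fold lower than each were 0, with 2.05% of all genes. The shares are not matched for brightness, and the 4 are named because they passed this threshold. GSTK1, a mitochondrial and peroxisomal glutathione transferase, had 10.08 on shDKK3, 8.57 on shScr and 8.90 on parental (1.5 and 1.18). GSTZ1, a transferase of tyrosine breakdown, had 8.59, 7.05 and 7.32 on these arrays (1.54 and 1.27). IDH2, which makes mitochondrial NADPH, had 8.28, 7.03 and 7.23 (1.25 and 1.06). AKR7A2, an aldehyde reductase, had 10.49, 9.19 and 9.44 (1.30 and 1.06). None of the 4 changed sign against either control under the alternatives, and the control arrays lay at most 0.33 apart for them after normalisation. With the background column subtracted, IDH2 was at 0.33 and 0.26. These genes share the shDKK3 array in both comparisons. The other 4 genes at least 2-fold higher than on shScr were named after their values were seen. NUDT1, which hydrolyses oxidised nucleotides, was at 1.69 to shScr and 0.99 to parental. With the background column subtracted, NUDT1 turned to -0.12 against shScr. The rest were the haem transporter SLC48A1 (1.45 and 0.79), the peroxiredoxin PRDX5 (1.10 and 0.99) and the aldehyde dehydrogenase ALDH7A1 (1.03 and 0.15). For SLC48A1, PRDX5 and ALDH7A1 the values under the alternatives are not given here.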

How the data were processed

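Total RNA of shDKK3, shScr and parental HSC-3 cells was measured on 1 array each. Per the labels' protocols it was amplified to amino allyl RNA and coupled to Cy5. The scanner files deposited by the authors hold the median spot intensity at 635 nm, combined from 3 scanner gains per the file headers. The authors' deposited table holds intensity with the blank level subtracted and each array scaled to a median of 25, as worked out from the values; the scanner software and genome build are not given in the sources used here. Groups follow the shRNA labels.

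Spot medians were corrected with normexp (offset 50) in limma 3.58.1 under R 4.3.3. They were quantile normalised on the log2 scale over 24460 gene probes, and the code was run on simulated data. The simulation changed a small set of probes equally up and down and scored only brighter probes. It therefore does not cover the uneven differences here, with 448 genes at least 2-fold higher and 679 lower on shDKK3 than on shScr. The limit for a probe was the blank mean plus 2 SD (2680 blanks), passed by 19887 probes on shDKK3, 19599 on shScr and 19190 on parental. The number of arrays limits the precision. Platform annotation gave 1 symbol for 20236 probes and none for 4224, and all 35 symbols are current in RefSeq (GRCh38.p14). A gene was read from its probe with the highest mean and compared where the brighter array passed the limit. Genes were counted at a log2 difference of at least 1 in size. With 1 array a group no test was made. All listed genes with a probe were described. Of the further pathway genes, those at least 2-fold from both controls in the same direction were named, and, for a direction with none, the 3 with the largest difference to shScr. The members and lists were chosen with earlier results of these data known. The robust SD for a gene is over the 500 genes nearest in level between the controls. Alternatives were an offset of 16, the blank mean subtracted, subtraction of the deposited background column (which follows its own spot, r from 0.891 to 0.935), scaling to the median or 75th percentile, cyclic loess, the authors' table (floor of 5), no filter, the mean of probes, removal of the trend with gene length, and a 1.5-fold threshold.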

Additional observations from a re-analysis of the deposited data

How the results depend on the processing

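The median of the antioxidant genes against shScr, 0.06, lay between -0.0083 (background column) and 0.40 (75th percentile) over the 10 alternatives, with 0.22 in the authors' table. Against parental the median, 0.06, lay between 0.03 (cyclic loess) and 0.37 (authors' table). Between the controls, 0.05 turned to -0.06 with scaling to the 75th percentile and to -0.03 in the authors' table. Counts moved by over 1.5 times in these cases. For shDKK3 against shScr, the 4 higher genes became 2 with the background column subtracted, 8 with scaling to the 75th percentile, 10 in the authors' table and 11 at 1.5-fold, and the 4 lower genes became 7 with that column, 2 with scaling to the 75th percentile and 9 at 1.5-fold. For shDKK3 against parental, the 4 higher became 7 with scaling to the 75th percentile, 8 in the authors' table and 9 at 1.5-fold, and the 3 lower became 5 at 1.5-fold. For shScr against parental, the 2 higher became 4 with the background column, 1 with the mean of probes and 6 at 1.5-fold, and the 1 lower became 0 with that column, 2 in the authors' table and 2 at 1.5-fold. Subtraction of the background column turned the sign of SOD2 against shScr (-0.0502), of SOD2 between the controls (0.62), and of AKR1C2 for shDKK3 against parental (-0.18) and shScr against parental (-0.15). The cause of these shifts was not tested. No paired analysis was possible because each group had 1 array. Probes near the blanks (GPX1, MGST1, ABCC2, and AKR1B10 and GPX2 on the control arrays) have compressed differences, and the brightest (TXN, FTH1, FTL, PRDX1, SOD1) depend on the normalisation.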
